A study of Danio rerio with 24 samples.

Results

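Transcription factor genes of early neural patterning were followed in zebrafish embryos across the start of transcription from the embryo's own genome. They were chosen by symbol: zic2a, zic2b, otx1, otx2b, irx7, her3, foxd3 and foxd5, which are 8 of the 31901 genes in the deposited tables. Earlier results of these data were known when these genes and the gene lists below were chosen. Their counts and ranks beside all genes are therefore descriptive. Whole wild-type embryos were kept from 0.75 hours post fertilization (hpf) in 0.1% dimethyl sulfoxide (DMSO), the vehicle, with either 0 or 40 µM tetrabromobisphenol A (TBBPA), a brominated flame retardant. They were collected at 2, 3.5 or 4.5 hpf, which gave 6 groups of 4 RNA sequencing libraries, 24 in all. The comparisons asked how TBBPA-exposed embryos differed from vehicle embryos of the same time, and how each treatment changed between times. Every group carried DMSO. Nothing in the labels says whether the 4 libraries of a group came from separate clutches. A p-value here sets a difference against the spread of these libraries only, and that spread may be technical.

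At the earliest of these times the zebrafish embryo lives on messenger RNA that the mother placed in the egg, and most of its own genes are silent. Around the blastula stage the genome is switched on, maternal transcripts are cleared, and the ectoderm begins to divide into neural plate and epidermis under the control of BMP, Wnt and FGF signals. The factors described here are known from early neural patterning. Otx1 and Otx2b are orthodenticle-type homeobox factors of the forebrain and midbrain, and Irx7 is an Iroquois homeobox factor that acts on the other side of that territory, around the midbrain-hindbrain boundary. Her3 is a hairy-related helix-loop-helix repressor that holds back neurogenesis between the proneural fields. Foxd3 is a forkhead factor best known for specifying neural crest, and Foxd5 is a related forkhead factor of the early neural plate. Zic2a and Zic2b are zinc finger factors of the dorsal neural tube and forebrain, and loss of human ZIC2 causes holoprosencephaly.

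Levels are given in FPKM, here a read count divided by gene length and by a scaling factor of the library, and the reads counted per gene were recovered from these values. Libraries held 10.6 to 20 M (mega) reads assigned to genes. The group means (± SD, n = 4) ran from 13.4 ± 0.474 M in DMSO at 2 hpf to 16.1 ± 1.77 M in TBBPA at 3.5 hpf, with 13.7 ± 2.10 M in DMSO of 3.5 hpf. Markers of differentiated neurons, muscle, blood, glia and endocrine pancreas summed to at most 2.97 FPKM over the 9 genes in any library, and none of them reached the filter for testing. The 2 hpf libraries were scaled apart from the others, so their levels stand beside the later ones without a test. In whole-embryo RNA, fewer cells of a type and less RNA per cell cannot be told apart.

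The 8 genes followed 4 courses in vehicle embryos. The RNA of otx1 was already abundant at 2 hpf and fell by 4.5 hpf. Transcripts of irx7 and her3 were at or near 0 at 2 hpf, present at 3.5 hpf and lower again at 4.5 hpf. Those of foxd3, foxd5, zic2a and zic2b went from at most 0.626 FPKM at 2 hpf to their highest level at 4.5 hpf. Expression of otx2b stayed under 1 FPKM in all 24 libraries. In TBBPA, the levels at 4.5 hpf were higher than in DMSO for irx7 and otx1, and lower for foxd3, foxd5, zic2a and zic2b.

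**Figure D1:**
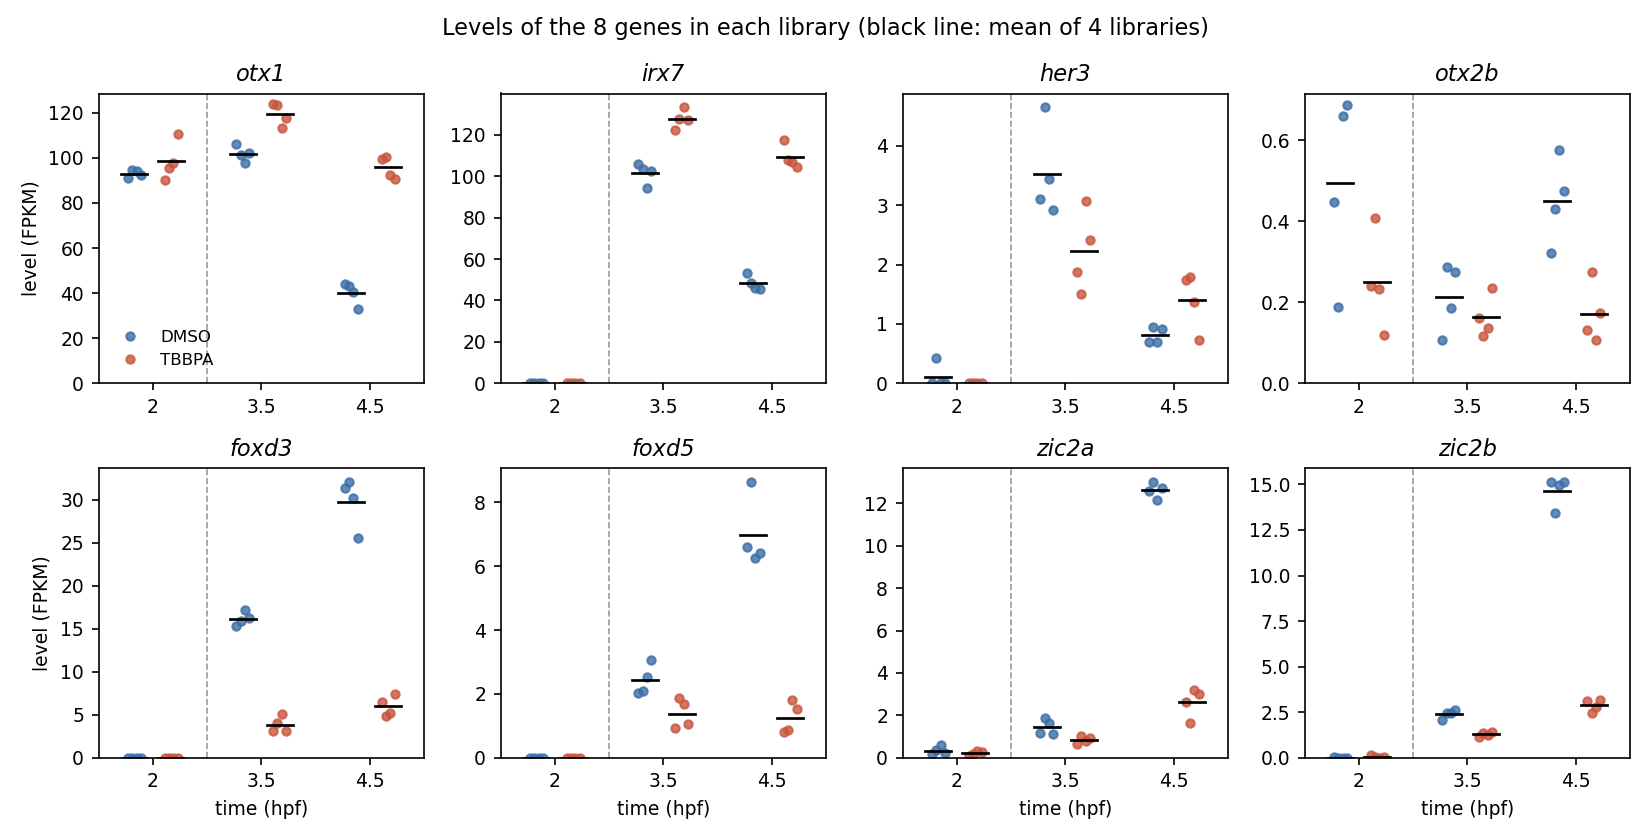
Level of each gene (y axis, FPKM, linear, a separate scale for each panel) against collection time (x axis, hpf) in DMSO (blue) and TBBPA (red). Points are libraries and black lines are means of 4; the dashed line separates the 2 hpf libraries, which were scaled apart. In the otx1 and irx7 panels the TBBPA points lie above the DMSO points at 4.5 hpf, and in the zic2a, zic2b, foxd3 and foxd5 panels they lie below.

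The otx1 gene (ENSDARG00000094992, chromosome 17, 24318753 to 24324415, plus strand, in the coordinates of the deposited tables) had the longest history in these embryos. In replicates 1 to 4 at 2 hpf it stood at 91.3, 94.4, 94.1 and 92.3 FPKM in DMSO and at 90.0, 95.7, 97.6 and 111 FPKM in TBBPA. The groups overlapped, the log2 difference was 0.08 (SE 0.064, limma, Benjamini-Hochberg adjusted p = 0.799), and 97.4% of all genes lay below its level in DMSO. It was the only gene of the 8 that passed the filter at 2 hpf, and 0 of 1 was called, against 0% of the 11061 genes tested called higher and 0% called lower. Over all genes at this time limma called 0, with 795 at an unadjusted p under 0.05, and limma voom on the recovered reads also called 0.

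At 3.5 hpf otx1 stood at 106, 101, 97.7 and 102 FPKM in DMSO and at 124, 124, 113 and 118 FPKM in TBBPA. Each TBBPA library lay above each DMSO library, and the gene rose 1.17 times in TBBPA relative to DMSO (log2 difference 0.23, SE 0.036, limma adjusted p = 0.00257). The distance was larger an hour later. At 4.5 hpf the DMSO libraries held 43.9, 43.1, 40.4 and 32.8 FPKM and the TBBPA libraries 99.7, 101, 92.5 and 90.7 FPKM. No value overlapped between the groups, and the TBBPA mean of 95.9 ± 4.95 FPKM was 2.39 times the DMSO mean of 40.0 ± 5.07 FPKM (log2 difference 1.25, SE 0.083, limma adjusted p = 6.54e-07).

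Transcripts of irx7 (ENSDARG00000002601, chromosome 23, 37815645 to 37816969, plus strand) reached the same level as otx1 from almost nothing. At 2 hpf they had 0 to 5 reads a library in DMSO and 0 reads in each TBBPA library. By 3.5 hpf the DMSO libraries held 106, 104, 94.5 and 102 FPKM and the TBBPA libraries 122, 128, 133 and 127 FPKM. The lowest TBBPA library was above the highest DMSO library, and irx7 rose 1.25 times in TBBPA relative to DMSO (log2 difference 0.33, SE 0.039, limma adjusted p = 5.25e-04). At 4.5 hpf the values were 53.3, 48.4, 45.9 and 45.3 FPKM in DMSO and 118, 108, 107 and 104 FPKM in TBBPA. Again nothing overlapped, and the TBBPA mean was 2.26 times the DMSO mean (log2 difference 1.16, SE 0.056, limma adjusted p = 1.08e-07).

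The repressor gene her3 (ENSDARG00000076857, chromosome 8, 46641314 to 46642556, plus strand) was read at low depth. It had 5 reads in 1 DMSO library at 2 hpf and 0 in the other 7 libraries of that time. At 3.5 hpf it held 3.11, 4.65, 3.44 and 2.92 FPKM in DMSO, from 34 to 66 reads, and 1.88, 1.51, 3.08 and 2.42 FPKM in TBBPA. TBBPA replicate 3 lay inside the DMSO range, and the log2 difference of -0.50 (SE 0.162) did not pass the threshold (limma adjusted p = 0.0756). Without that library the adjusted p was 0.0301. At 4.5 hpf it held 0.696, 0.952, 0.701 and 0.908 FPKM in DMSO and 1.74, 1.79, 1.36 and 0.734 FPKM in TBBPA. The groups overlapped through TBBPA replicate 4, the gene missed the filter of 1 FPKM in 4 libraries, and a limma fit with no filter gave a log2 difference of 0.39 with an adjusted p of 0.0888. It was called higher after TPM scaling (log2 difference 0.66, limma adjusted p = 0.0202) and, narrowly, in the fit on all 16 libraries (adjusted p = 0.0495).

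The other orthodenticle gene, otx2b (ENSDARG00000011235, chromosome 17, 44244659 to 44249720, minus strand), was weak throughout and entered no filtered fit. Its means at 3.5 hpf were 0.214 ± 0.084 FPKM in DMSO and 0.163 ± 0.052 FPKM in TBBPA. At 4.5 hpf the DMSO libraries held 0.321, 0.429, 0.575 and 0.475 FPKM, from 11 to 20 reads, and the TBBPA libraries 0.133, 0.276, 0.106 and 0.172 FPKM, from 4 to 10 reads. The highest TBBPA library lay under the lowest DMSO library. With no filter, limma gave a log2 difference of -0.31 (SE 0.068) with an adjusted p of 0.0060. The gene overlaps an annotated antisense gene whose own reads were close to 0, and no source says if these libraries preserve strand.

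Among the forkhead genes, foxd3 (ENSDARG00000021032, chromosome 6, 32092032 to 32093830, minus strand) differed most at 3.5 hpf. It had 0 reads in all 8 libraries of 2 hpf, where 3 reads would equal 0.119 to 0.128 FPKM. At 3.5 hpf the DMSO libraries held 15.4, 15.9, 17.1 and 16.3 FPKM and the TBBPA libraries 3.15, 4.03, 5.11 and 3.08 FPKM. The groups lay far apart, and foxd3 fell in TBBPA relative to DMSO, with a DMSO mean 4.21 times the TBBPA mean (log2 difference -1.84, SE 0.118, limma adjusted p = 1.63e-05). At 4.5 hpf DMSO held 31.3, 32.1, 30.2 and 25.6 FPKM and TBBPA 6.50, 4.88, 5.26 and 7.39 FPKM. The DMSO mean was then 4.96 times the TBBPA mean (log2 difference -2.14, SE 0.115, limma adjusted p = 1.93e-07).

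The gene foxd5 (ENSDARG00000042485, chromosome 8, 30452945 to 30454096, plus strand) also had 0 reads in all 8 libraries of 2 hpf, where 3 reads would equal 0.185 to 0.200 FPKM. At 3.5 hpf it held 2.04, 2.10, 2.54 and 3.05 FPKM in DMSO and 0.935, 1.87, 1.69 and 1.05 FPKM in TBBPA, from 19 to 52 reads a library. All TBBPA values lay under all DMSO values, and the gene passed the threshold narrowly (log2 difference -0.54, SE 0.148, limma adjusted p = 0.0428). The call was lost without DMSO replicate 2, 3 or 4 or TBBPA replicate 1 or 4, with adjusted p-values from 0.0635 to 0.114, with no filter (0.118) and with TPM scaling (0.0516). At 4.5 hpf foxd5 held 6.61, 8.64, 6.24 and 6.42 FPKM in DMSO and 0.799, 0.880, 1.80 and 1.52 FPKM in TBBPA. The groups no longer came near each other, and the DMSO mean was 5.58 times the TBBPA mean (log2 difference -1.84, SE 0.157, limma adjusted p = 3.17e-06).

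Among the zinc finger genes, zic2a (ENSDARG00000015554, chromosome 9, 31282161 to 31287010, plus strand) had 4 to 27 reads a library at 2 hpf. At 3.5 hpf it held 1.17, 1.87, 1.64 and 1.13 FPKM in DMSO and 0.660, 1.04, 0.789 and 0.926 FPKM in TBBPA. Each TBBPA library was below each DMSO library, but the log2 difference of -0.40 (SE 0.12, 95% confidence interval -0.66 to -0.13) did not pass the threshold (limma adjusted p = 0.0589). With limma voom on the recovered reads it passed (adjusted p = 0.0330). Its TBBPA mean at 3.5 hpf was 0.854 FPKM, so it passed the filter through DMSO, where it was high. Both fits used that filter, which partly fixes their outcome. At 4.5 hpf the DMSO libraries held 12.6, 13.0, 12.2 and 12.7 FPKM and the TBBPA libraries 2.63, 1.64, 3.21 and 3.01 FPKM. The DMSO mean was 4.82 times the TBBPA mean (log2 difference -1.93, SE 0.132, limma adjusted p = 7.59e-07). The gene overlaps zic5 on the opposite strand, whose mean lay between 0.842 and 0.881 FPKM in the 4 groups of 3.5 and 4.5 hpf.

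The second copy, zic2b (ENSDARG00000037178, chromosome 1, 29831759 to 29860895, plus strand), had 0 to 5 reads a library at 2 hpf. At 3.5 hpf it held 2.05, 2.47, 2.45 and 2.62 FPKM in DMSO and 1.12, 1.36, 1.24 and 1.40 FPKM in TBBPA. The groups did not overlap, and zic2b fell in TBBPA relative to DMSO (log2 difference -0.57, SE 0.085, limma adjusted p = 0.00169). At 4.5 hpf it held 15.1, 13.4, 15.0 and 15.1 FPKM in DMSO and 3.13, 2.45, 2.78 and 3.19 FPKM in TBBPA. The DMSO mean was then 5.08 times the TBBPA mean (log2 difference -2.01, SE 0.081, limma adjusted p = 6.81e-08).

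At 3.5 hpf 7 of the 8 genes passed the filter, and in TBBPA 2 rose, 3 fell and 2 were not called. Of the 11859 genes tested at that time, 6.67% were called higher and 5.34% lower. At 4.5 hpf 6 genes passed the filter, of which 2 rose and 4 fell. At that time 33.1% of 12324 genes were called higher and 35% lower, so that a call alone was common. Ranked by log2 difference among the 12324 genes, foxd3 was at place 154 of the falls, zic2b at 191, zic2a at 221 and foxd5 at 258. Among the rises otx1 was at place 227 and irx7 at 317. These places rest on log2(FPKM + 1), which understates changes of low genes. By the ratio of the DMSO mean to the TBBPA mean, foxd5 had the largest fall of the 4, at 5.58. Scaling the values to TPM or to total reads moved the median log2 difference of all genes at 4.5 hpf by 0.15 and 0.12, and turned the split of called genes from 4075 higher and 4317 lower to 5751 and 3145 (TPM) or 5097 and 3022 (total reads). All 6 members kept their direction and their call under both scalings, and with TPM scaling her3 was also called higher.

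**Figure D2:**
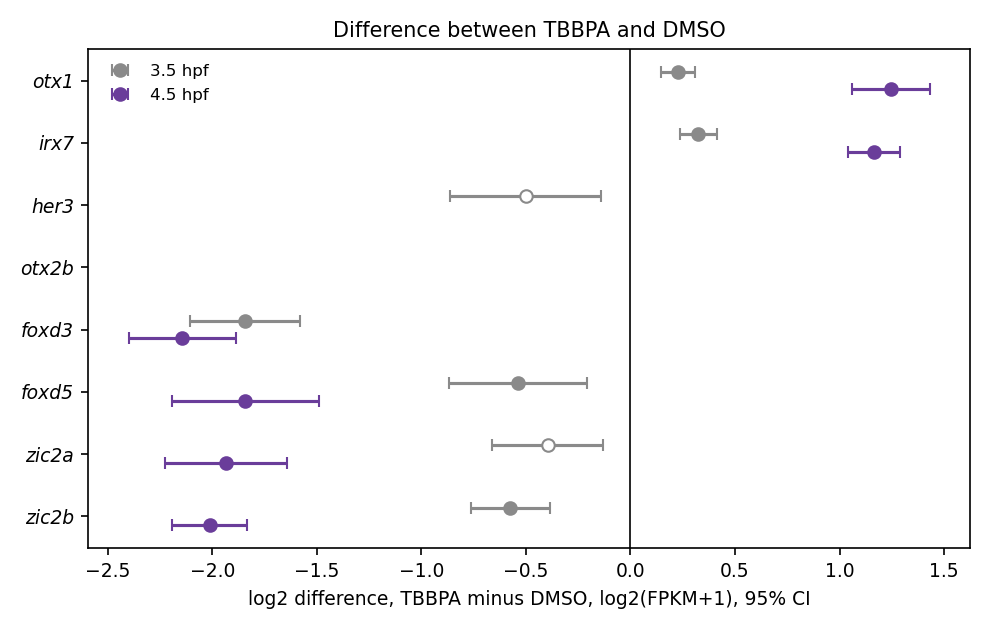
Difference between TBBPA and DMSO for each gene (x axis, log2 of FPKM + 1, TBBPA minus DMSO) at 3.5 hpf (grey) and 4.5 hpf (purple), with 95% confidence intervals. Filled points passed an adjusted p of 0.05 and open points did not; genes under the filter have no point. At 4.5 hpf irx7 and otx1 lie at 1.16 and 1.25, and foxd5, zic2a, zic2b and foxd3 lie between -1.84 and -2.14.

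Vehicle embryos changed strongly within the hour from 3.5 to 4.5 hpf. In DMSO 4 of the 7 tested genes rose and 3 fell, against 35.8% of 12354 genes called higher and 34.3% lower. The largest rise was that of zic2a, to 8.69 times its level at 3.5 hpf (log2 difference 2.48, SE 0.102, limma adjusted p = 1.62e-08), followed by zic2b to 6.11 times, foxd5 to 2.86 times and foxd3 to 1.84 times. The ratios of both zinc finger genes were larger than those of both forkhead genes, a difference that was not tested. The falls took otx1 to 0.393 of its level at 3.5 hpf (log2 difference -1.33, SE 0.079, limma adjusted p = 1.74e-07), irx7 to 0.474 and her3 to 0.231. No DMSO library of her3 at 4.5 hpf exceeded 0.952 FPKM. The gene therefore passed the filter through 3.5 hpf, where it was high, and its call is partly fixed by the filter.

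In TBBPA the same hour brought smaller changes. Of the 7 tested genes 3 rose, 2 fell and 2 were not called, against 6.15% of 11877 genes called higher and 8.6% lower. The level of zic2a rose to 3.07 times (log2 difference 0.95, SE 0.145, limma adjusted p = 0.00248) and that of zic2b to 2.25 times (limma adjusted p = 8.16e-04). In TBBPA at 3.5 hpf zic2a averaged 0.854 FPKM, so it passed the filter through 4.5 hpf, where it was high, and its call is partly fixed. Expression of otx1 fell to 0.802 of its level at 3.5 hpf (limma adjusted p = 0.00139) and that of irx7 to 0.856 (limma adjusted p = 0.00552). For foxd3 the TBBPA libraries of the 2 times overlapped and the rise to 1.56 times passed narrowly (log2 difference 0.54, SE 0.151, limma adjusted p = 0.0393). That call was lost with no filter (0.0959) and without TBBPA replicate 1, 2 or 4 at 3.5 hpf or replicate 1, 3 or 4 at 4.5 hpf, with adjusted p-values from 0.0602 to 0.106. The values of foxd5 (log2 difference -0.09, SE 0.178, limma adjusted p = 0.785) and her3 (-0.42, SE 0.184, adjusted p = 0.157) did not pass.

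In absolute terms, the mean of zic2a gained 11.2 FPKM in DMSO and 1.76 FPKM in TBBPA over that hour, and zic2b gained 12.3 and 1.61 FPKM. The mean of foxd3 gained 13.6 and 2.17 FPKM, while foxd5 gained 4.54 FPKM in DMSO and changed by -0.14 FPKM in TBBPA. On the other side, otx1 changed by -61.8 FPKM in DMSO and -23.7 FPKM in TBBPA, and irx7 by -53.4 and -18.4 FPKM. These differences rest on the same libraries as the ratios and are not separate evidence. They also carry the difference in level already present at 3.5 hpf. For foxd3 the gains were far apart, while the ratio of 4.5 to 3.5 hpf was 1.84 in DMSO and 1.56 in TBBPA.

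**Figure D3:**
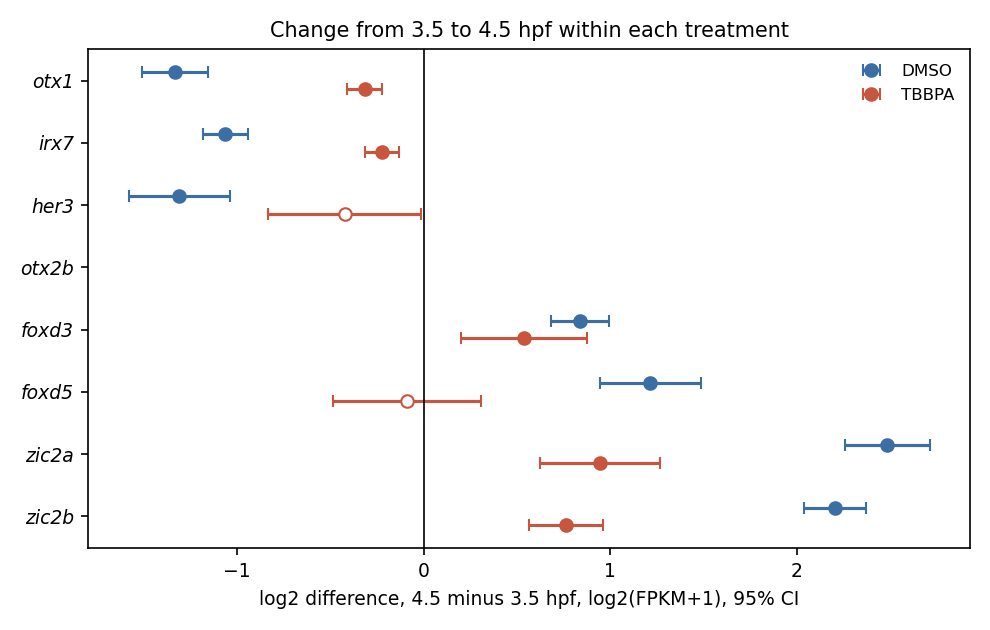
Change from 3.5 to 4.5 hpf for each gene (x axis, log2 of FPKM + 1, 4.5 minus 3.5 hpf) within DMSO (blue) and within TBBPA (red), with 95% confidence intervals; filled points passed an adjusted p of 0.05. The DMSO points reach from -1.33 for otx1 to 2.48 for zic2a, and the TBBPA points from -0.42 for her3 to 0.95 for zic2a.

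Whether the TBBPA effect itself differed between the times was tested by an interaction term of treatment with time, using all 16 libraries of 3.5 and 4.5 hpf. It was higher at 4.5 hpf for 3 of 7 genes, lower for 3 and not called for 1, against 26.3% of 12780 genes called higher and 26.6% lower. The effect moved upward for otx1 by 1.02 (SE 0.098, limma adjusted p = 3.84e-07), for irx7 by 0.84 (SE 0.072, limma adjusted p = 1.34e-07) and for her3 by 0.89 (SE 0.235, limma adjusted p = 0.00451) on the log2 scale. For her3 this joins a mean at 63.0% of DMSO at 3.5 hpf to one at 173% at 4.5 hpf, both from few reads. The effect changed by -1.54 for zic2a (SE 0.185, limma adjusted p = 3.66e-06), by -1.44 for zic2b (SE 0.111, adjusted p = 4.93e-08) and by -1.31 for foxd5 (SE 0.230, adjusted p = 1.59e-04).

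For foxd3 the interaction did not pass (log2 -0.30, SE 0.177, 95% confidence interval -0.68 to 0.08, limma adjusted p = 0.169). Its TBBPA mean was 23.8% of the DMSO mean at 3.5 hpf and 20.2% at 4.5 hpf. The other 3 genes that were lower at 4.5 hpf started nearer to DMSO. For zic2a the TBBPA mean went from 58.7% to 20.7% of DMSO, for zic2b from 53.4% to 19.7%, and for foxd5 from 56.9% to 17.9%. At 4.5 hpf all 4 thus stood between 17.9% and 20.7% of their vehicle level, while otx1 stood at 239% and irx7 at 226%.

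Exposed embryos of 4.5 hpf were also set against vehicle embryos 1 hour younger. None of the 7 tested genes was higher, 3 were lower and 4 were not called, against 3.55% of 11947 genes called higher and 4.53% lower. The level of otx1 differed by -0.09 on the log2 scale (95% confidence interval -0.18 to 0.003, limma adjusted p = 0.228), that of irx7 by 0.10 (0.0019 to 0.20, limma adjusted p = 0.206) and that of zic2b by 0.19 (-0.02 to 0.40, limma adjusted p = 0.25). These intervals bound the difference but do not show that the levels are alike. The value of zic2a was 0.55 higher (SE 0.159, limma adjusted p = 0.0628) and passed with limma voom (0.0408), in a fit on all 16 libraries (0.0140) and without TBBPA replicate 2 at 4.5 hpf (0.0154), each of which makes 1 gene higher.

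Both forkhead genes and her3 were lower in that setting. Expression of foxd3 differed by -1.30 (SE 0.104, limma adjusted p = 5.78e-05) and that of her3 by -0.92 (SE 0.167, limma adjusted p = 0.00886). For foxd5 the difference of -0.63 (SE 0.159, limma adjusted p = 0.0397) was lost with no filter (0.106) and when any library but TBBPA replicate 3 at 4.5 hpf was left out, with adjusted p-values from 0.0502 to 0.102. This comparison shares its TBBPA libraries with the comparison at 4.5 hpf and its DMSO libraries with that at 3.5 hpf.

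Related genes were then compared directly, as the log2 ratio of (FPKM + 1) of one to that of the other in each library. For the duplicated genes zic2b and zic2a, neither test of this ratio between treatments passed, which does not show that their levels were alike. At 4.5 hpf the log2 ratio of zic2b to zic2a was 0.25, 0.04, 0.28 and 0.23 in DMSO and 0.19, 0.39, -0.15 and 0.06 in TBBPA. The groups overlapped at 4.5 hpf (exact permutation p = 0.543) and at 3.5 hpf, where the ratio averaged 0.48 in DMSO and 0.30 in TBBPA (exact permutation p = 0.171, adjusted over 6 ratio tests 0.206).

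The forkhead genes were compared in the same way. At 3.5 hpf the log2 ratio of foxd5 to foxd3 was -2.43, -2.44, -2.36 and -2.09 in DMSO and -1.10, -0.81, -1.18 and -0.99 in TBBPA. The groups did not overlap and differed by 1.31. The exact 2-sided permutation p was 0.0286, the smallest that 4 against 4 libraries allow, and 0.0857 after adjustment over the 6 ratio tests. From that smallest p, a ratio can pass the threshold only if most of the 6 tests reach it. Missing the threshold is therefore largely set by the number of libraries and does not show that the ratio was unchanged. At 4.5 hpf the groups overlapped and the difference was 0.30 (exact permutation p = 0.143), which turned to -0.15 with a pseudocount of 0.1 in place of 1. The ratio of otx2b to otx1 was lower in TBBPA at 4.5 hpf by 1.55 on the log2 scale with no overlap (a difference of -1.55, exact permutation p = 0.0286, adjusted 0.0857). With the pseudocount of 1 that ratio mostly follows otx1, since otx2b is close to 0. With a pseudocount of 0.1 the difference was -2.30, and the lower otx2b level in TBBPA then weighs more.

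**Figure D4:**
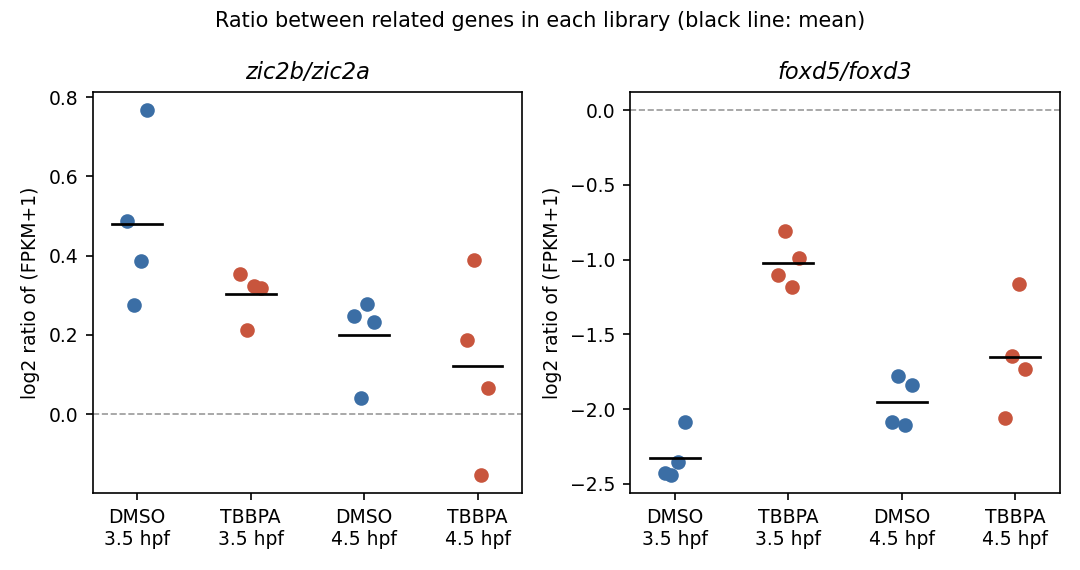
Log2 ratio of related genes in each library (y axis, log2 of FPKM + 1 of the one over that of the other) for zic2b over zic2a and foxd5 over foxd3, in DMSO (blue) and TBBPA (red) at 3.5 and 4.5 hpf (x axis). For foxd5 over foxd3 at 3.5 hpf the DMSO libraries lie between -2.44 and -2.09 and the TBBPA libraries between -1.18 and -0.81; the other sets overlap.

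The genes whose course over the 16 libraries of 3.5 and 4.5 hpf lay nearest were found among 10088 candidates by the root mean square distance of centred log2(FPKM+1). For otx1 this was tdrd1, a Tudor domain gene of the germ line, at a distance of 0.0531, with means of 14.6 and 4.97 FPKM in DMSO at 3.5 and 4.5 hpf and 16.7 and 13.7 FPKM in TBBPA. For irx7 it was baiap2l1b at 0.0812, with 38.4 and 17.1 FPKM in DMSO and 47.1 and 37.8 FPKM in TBBPA. Both zic2a and zic2b had as nearest gene mcm3, a subunit of the replicative helicase, at 0.18 and 0.131. Its means were 9.16 and 52.4 FPKM in DMSO and 6.77 and 12 FPKM in TBBPA.

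The nearest gene to foxd3 was ackr3b, a chemokine-scavenging receptor, at 0.259, with 12 and 23.9 FPKM in DMSO and 3.32 and 6.89 FPKM in TBBPA. To foxd5 it was gadd45ba at 0.216, to her3 it was mcm9 at 0.293, and to the nearly flat otx2b it was clpxa at 0.0535. Nearest to the mean course of the 8 genes were eno3 (0.0835), tacc3 (0.0916), rpsa (0.0951), uqcrc2a (0.0955) and rps2 (0.104). That mean joins genes that rose with genes that fell.

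The genomic neighbours of the 8 genes were read from the positions in the tables. A noncoding gene, BX664614.1, lies 105 bp from the start of foxd3 on the opposite strand. It averaged 0.466 ± 0.126 FPKM in DMSO and 0.0758 ± 0.045 FPKM in TBBPA at 3.5 hpf, from 62 and 12 reads over the 4 libraries of a group. At 4.5 hpf it averaged 0.769 ± 0.230 and 0.18 ± 0.102 FPKM, from 106 and 27 reads, and the DMSO and TBBPA libraries overlapped at neither time. It was under the filter, so no test was made. Calls of the tested neighbours at 4.5 hpf stand beside 33.1% of all genes called higher and 35% lower. The gene alg6, 4920 bp from foxd3, fell at 4.5 hpf in TBBPA relative to DMSO by a log2 difference of -0.23 (limma adjusted p = 6.92e-04). Beside zic2b, pcca at 1178 bp fell by a log2 difference of -0.43 (limma adjusted p = 0.0135), and tm9sf2 at 7383 bp differed by -0.27 (limma adjusted p = 0.200). Beside otx1, wdpcp at 6632 bp rose by a log2 difference of 0.39 (limma adjusted p = 0.00827). At 4.5 hpf no DMSO library of wdpcp exceeded 0.998 FPKM and no TBBPA library was under 1.19 FPKM. That gene therefore passed the filter through TBBPA, where it was high, and its call is partly fixed by the filter. Far from otx2b, tmem260 at 49773 bp fell (log2 difference -0.22, limma adjusted p = 0.0152). The tested neighbour of irx7 (CR381544.1, log2 difference -0.03, limma adjusted p = 0.502) and that of foxd5 (cbwd, 0.29, limma adjusted p = 0.144) did not pass. None of the neighbours of zic2a and her3 reached the filter.

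Other genes of the neural and ectodermal pathways were described from 13 lists of 134 symbols, at 4.5 hpf. For these lists, rose and fell mean TBBPA relative to DMSO at the same time, unless a change over time is named. Values written as going from one level to another go from DMSO to TBBPA. Of the 67 listed genes that passed the filter, 9 had a mean under 1 FPKM in TBBPA only and 2 (msx1b and her12) in DMSO only. Such a gene passed mostly through the group where it is high, so the filter favours a difference in that direction. Among the 56 with both means at 1 FPKM or more, 10 rose and 42 fell. Of all 11425 genes with both means at that level, 3825 were called higher and 3829 lower. Of the neural plate homeobox genes, 26 in the tables, 3 passed the filter, 2 fell and 1 was not called. The larger fall was that of gbx1, a hindbrain factor, from 5.36 ± 0.244 to 1.66 ± 0.536 FPKM, beside otx2a from 4.11 ± 0.324 to 2.03 ± 0.679 FPKM. Both tested genes of the SoxB list fell, sox19a from 51.2 ± 3.06 to 13.9 ± 1.86 FPKM and sox3 from 101 ± 7.08 to 52.7 ± 4.92 FPKM. The maternal SoxB gene sox19b, listed with the maternal activators, rose.

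The 7 tested forebrain and Wnt-repressing factors were split, with 3 higher, 3 lower, 1 not called and a median log2 difference of 0.08. Expression of sp5a, a target of Wnt signalling, fell (log2 difference -1.02), as did sall4 and foxb1a, while tcf7l1a, tcf7l1b and fezf2 were called higher. The rise of fezf2, a forebrain zinc finger factor, was 0.61 with overlapping groups (limma adjusted p = 0.0155). Of 6 tested hairy-related genes other than her3, 5 fell and 1 rose, with hes6 going from 10.7 ± 0.722 to 1.09 ± 0.437 FPKM and her12 from 0.197 ± 0.085 to 3.04 ± 0.844 FPKM, the median being -0.76. The 5 that fell had both means at 1 FPKM or more. Over all genes tested at that time 33.1% were called higher and 35% lower.

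At the border of the neural plate, 3 of 4 tested genes fell and 1 rose, with a median of -1.72. The crest and epidermis factor tfap2a went from 37.5 ± 1.09 to 5.77 ± 1.69 FPKM, and msx1b from 0.901 ± 0.502 to 3.12 ± 0.0764 FPKM. Of 8 tested factors of the non-neural ectoderm 7 fell and 1 rose, with a median of -1.51. The BMP-induced repressor ved fell from 45.3 ± 8.32 to 6.82 ± 1.35 FPKM, and foxi1, an ectodermal forkhead gene, rose from 18.2 ± 2.26 to 39.5 ± 4.04 FPKM. Of 7 tested BMP antagonists and FGF ligands 6 fell, with a median of -2.16, and chrd, the dorsal BMP antagonist chordin, went from 50 ± 8.75 to 3.14 ± 1.24 FPKM. In 2 of these 7 the mean was under 1 FPKM in TBBPA only, so the filter partly fixes that count and median. Of the 5 with both means at 1 FPKM or more, 4 fell. Over all 12324 genes tested at 4.5 hpf the median was -0.02, with 33.1% of genes higher and 35% lower.

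The maternal factors that open the zygotic genome were measured in the same libraries. At 4.5 hpf pou5f3 stood at 843 ± 41.2 FPKM in DMSO and 494 ± 8.92 FPKM in TBBPA, and nanog at 1346 ± 19.7 and 971 ± 20.5 FPKM, and both fell (limma adjusted p = 8.36e-08 and 1.48e-07). The maternal SoxB gene sox19b stood at 74.9 ± 10.9 FPKM in DMSO and 325 ± 32 FPKM in TBBPA and rose (log2 difference 2.11, limma adjusted p = 1.40e-07). In DMSO at 2 hpf sox19b stood at 436 FPKM, pou5f3 at 735 FPKM and nanog at 1133 FPKM. From 3.5 to 4.5 hpf in DMSO, pou5f3 and nanog rose and sox19b fell. Of the 8 genes, otx1, the only one abundant at 2 hpf, was higher in TBBPA at 4.5 hpf, and so was irx7, which was near 0 at 2 hpf. The part of maternal RNA in these levels was not tested. At 3.5 hpf pou5f3 and nanog were already lower (log2 differences -0.17 and -0.12), and sox19b differed by 0.10 (limma adjusted p = 0.0545).

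Markers of other cell types of the embryo moved along with treatment at 4.5 hpf, and their part in the values above was not tested. Over all 12324 genes tested at that time 33.1% were called higher and 35% lower. All 8 tested markers of the enveloping layer fell (median -4.08), with krt92 from 24.9 ± 7.27 to 0.215 ± 0.0308 FPKM. In 5 of these 8 the mean was under 1 FPKM in TBBPA only, so the filter partly fixes that count and median, and the 3 with both means at 1 FPKM or more fell. The summed level of the 10 listed markers was 318 to 400 FPKM in DMSO and 110 to 112 FPKM in TBBPA, where 3 of the 10 were at 0 in every library. That sum includes cdh1, which already stood at 181 ± 7.60 FPKM in DMSO at 2 hpf, so it does not follow the other markers alone. All 4 tested markers of the yolk syncytial layer fell (median -1.44), with gata6 from 16.5 ± 5.79 to 1.53 ± 0.744 FPKM and a summed level over 5 genes of 58.4 to 84.8 FPKM in DMSO and 18.6 to 27.6 FPKM in TBBPA. In 1 of these 4 the mean was under 1 FPKM in TBBPA only, and the 3 with both means at 1 FPKM or more fell. Of 9 tested mesendoderm markers 8 fell (median -2.17), with noto from 96.7 ± 14 to 15.0 ± 5.14 FPKM. In 1 of these 9 the mean was under 1 FPKM in TBBPA only, and of the 8 with both means at 1 FPKM or more 7 fell. The summed level of the 12 listed mesendoderm markers was 322 to 446 FPKM in DMSO and 56.7 to 90.8 FPKM in TBBPA.

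Genes of the p53 response moved too, and their part was likewise not tested. Of the 6 tested genes 5 rose and 1 fell at 4.5 hpf (median 2.05), beside 33.1% of all genes called higher and 35% lower. The cell cycle inhibitor gene cdkn1a rose from 7.60 ± 1.2 to 43.6 ± 5.01 FPKM and ccng1 fell from 91.9 ± 7.81 to 75.3 ± 1.99 FPKM. The summed level of the 6 genes was 114 to 132 FPKM in DMSO and 178 to 230 FPKM in TBBPA. At 3.5 hpf it was 78.3 to 96.5 FPKM in DMSO and 139 to 148 FPKM in TBBPA. The enveloping layer markers then summed to 122 to 129 FPKM in DMSO and 114 to 120 FPKM in TBBPA. Most of that sum was cdh1, with means of 110 FPKM in DMSO and 115 FPKM in TBBPA, which was not called. Of the 2 that were called lower, cldne went from 11.7 ± 1.66 to 1.48 ± 0.527 FPKM (limma adjusted p = 1.63e-05). The mesendoderm markers summed to 29.3 to 34.8 FPKM in DMSO and 17.8 to 25.0 FPKM in TBBPA.

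At 3.5 hpf fewer of the listed genes had moved. In TBBPA 0 of 2 tested neural plate homeobox genes fell, 3 of 7 forebrain factors and both tested genes of the SoxB list. Of 6 hairy-related genes 4 fell and 1 rose, of 5 border factors 2 fell, and of 8 non-neural ectoderm factors 5 fell and 1 rose. Of 4 BMP antagonists and FGF ligands 2 fell, as did 2 of 3 maternal activators, 2 of 3 enveloping layer markers, 0 of 2 yolk syncytial layer markers and 3 of 6 mesendoderm markers, while 5 of 6 p53 response genes rose. Over all 11859 genes at that time the median was 0.009, with 6.67% called higher and 5.34% lower. Of the 54 listed genes tested at 3.5 hpf, 7 had a mean under 1 FPKM in TBBPA only and 3 (phlda3, her12 and pax3a) in DMSO only. The filter thus partly fixes these counts. Among the 44 with both means at 1 FPKM or more, 5 rose and 19 fell, against 7 and 25 of all 54. On that footing 1 of 2 enveloping layer markers and 2 of 3 hairy-related genes fell, and 4 of 5 p53 response genes rose. The list of differentiated cell markers gave no tested gene.

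**Figure D5:**
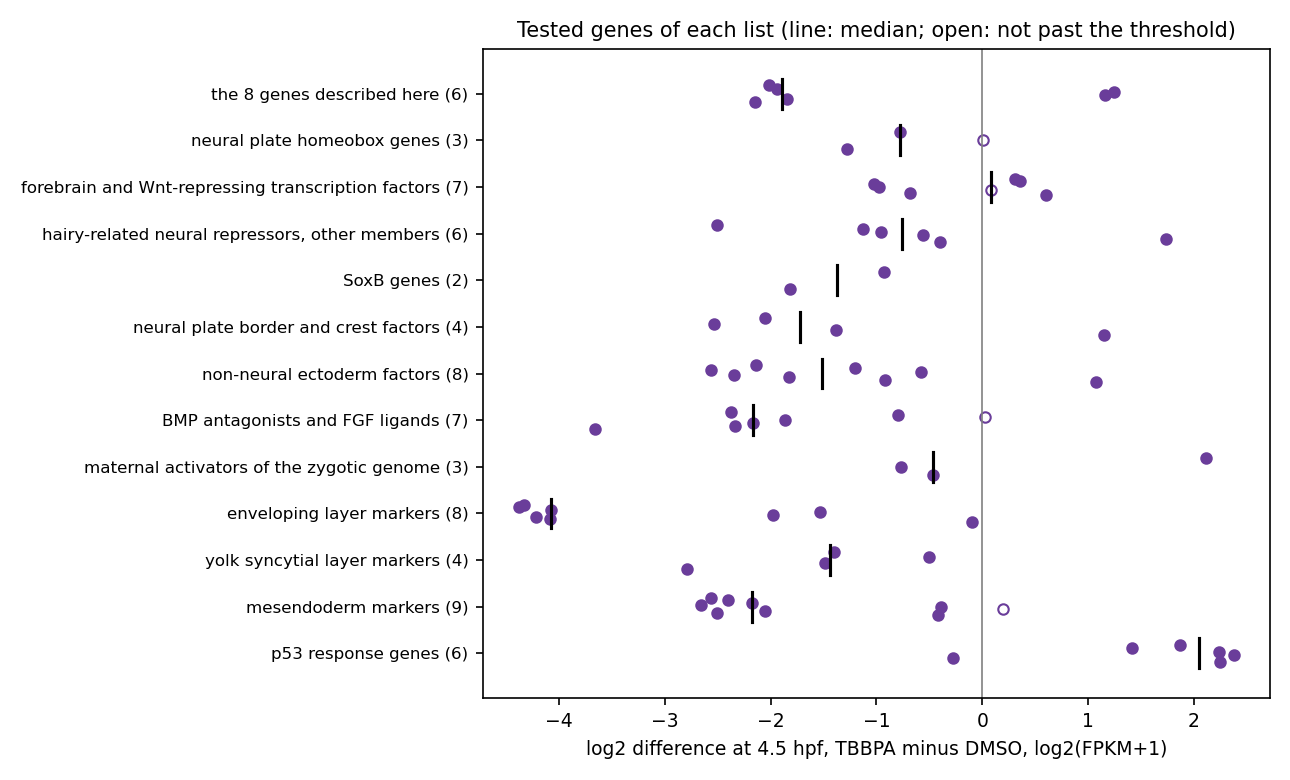
Difference between TBBPA and DMSO at 4.5 hpf for each tested gene of the lists (x axis, log2 of FPKM + 1, TBBPA minus DMSO), 1 row for the 8 genes and for each list, with the number tested in brackets; points are genes, open where not past the threshold, and the short line is the median. The enveloping layer row has the lowest median, -4.08, and the p53 response row the highest, 2.05.

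The deposited tables give a transcription factor class for 7 of the 8 genes, and none for zic2b. The classes are described here without the members, and beside the 33.1% of all genes called higher and 35% called lower at 4.5 hpf. Of 426 tested C2H2-type zinc finger genes, the class of zic2a, 67 were higher and 286 lower at 4.5 hpf, with a median log2 difference of -0.75. Of 30 tested forkhead genes, the class of foxd3 and foxd5, 16 were higher and 10 lower, with a median of 0.18. In the zinc finger class 97 genes had a mean under 1 FPKM in TBBPA only, and among the 327 with both means at 1 FPKM or more 65 were higher and 191 lower. Of 33 tested helix-loop-helix genes, the class of her3, 14 were higher and 10 lower. Of 6 tested genes in the class given for irx7, 1 was higher and 1 lower, and the single tested gene of the Otx class, otx2a, fell.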

How the data were processed

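RNA of whole zebrafish embryos was sequenced in 24 libraries. The submitters' processing notes name HISAT2 2.0.5 and featureCounts 1.5.0-p3. The genome build is not given in the sources used here. The labels' protocols name both a directional and a non-directional library kit, so strand is not known and overlapping genes are uncertain. The authors deposited FPKM in 2 tables, for the 8 libraries of 2 hpf and the 16 of 3.5 and 4.5 hpf, per the file headers. FPKM times gene length gave whole multiples of 1 step per library for 100% of genes within 0.001 step, taken as reads. Step and median-of-ratios size factor were inversely proportional within each table, so each table was scaled separately. On log2(FPKM+1), Pearson's r of the 36 replicate pairs was 0.991 to 0.997.

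Genes that reached 1 FPKM in 4 or more of the libraries compared were tested with limma 3.58.1 (variances following a trend) on log2(FPKM + 1), 2-sided, Benjamini-Hochberg adjusted over all genes, threshold 0.05. The pseudocount of 1 understates changes of low genes. Each comparison used 4 against 4 libraries, and the interaction 16. Ratios of related genes were tested by exact permutation. Alternatives were a pseudocount of 0.1, no filter, TPM or total-read scaling, limma voom on recovered reads, a replicate block, leaving out each library, and a fit on all 16 libraries. The script was checked on simulated data in which few genes changed, all of them starting above the filter. That check does not cover genes near the filter or a time at which most genes are called. Members and lists were chosen with earlier results of these data known. Of 134 list symbols 1 was not matched, and a further list is not reported here. Named genes outside the 8 are the largest called fall and rise of each list at 4.5 hpf, the nearest courses (protein-coding genes, clone and locus names excluded) and the maternal activators. The genomic neighbours, otx2a, sox3, and the remaining forebrain factors were named after their values were seen.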

Additional observations from a re-analysis of the deposited data

Results flagged for a closer look

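The 42 groups of 4 libraries with any reads were examined for a library far from the other 3, by the gap to the nearest library over the whole range of the group. In 4 of them that share exceeded Dixon's 95% critical value, and chance alone would mark about 1 group in 20. In DMSO at 4.5 hpf, zic2b had its lowest library at 13.4 FPKM with the nearest at 15.0 FPKM, and foxd5 had its highest at 8.64 FPKM with the nearest at 6.61 FPKM; replicate 2 is the library in both cases. The other 2 marks were single libraries with reads at 2 hpf in DMSO beside libraries at 0, zic2b at 0.0604 FPKM and her3 at 0.424 FPKM.

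The effect of TBBPA differed between 3.5 and 4.5 hpf by the interaction test (limma) for 6 genes, as described above. The log2 change of the effect was 0.84 for irx7, 1.02 for otx1, 0.89 for her3, -1.44 for zic2b, -1.54 for zic2a and -1.31 for foxd5.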

How the results depend on the processing

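The 6 members tested at 4.5 hpf, and in the interaction the 7, kept direction and call under every alternative run. The genes under the filter at 4.5 hpf entered in some alternatives: her3 was called higher with TPM scaling and in the fit on all 16 libraries, which makes 3 members higher, and otx2b lower with no filter, which makes 5 lower. Over all comparisons, 643 alternative values of single genes kept direction and call, 24 lost a call, 5 gained one and 2 turned sign. The latter belong to foxd5 from 3.5 to 4.5 hpf in TBBPA, which was never called and ranged from -0.20 to 0.0090 on the log2 scale when a library was left out (0.0051 without TBBPA replicate 2 at 3.5 hpf or 0.0090 without replicate 1 at 4.5 hpf). Among ratios of related genes, 2 turned sign: foxd5 over foxd3 at 4.5 hpf, to -0.15 with a pseudocount of 0.1, and zic2b over zic2a at 4.5 hpf, which ranged from -0.17 to 0.013 when a library was left out. The number of members higher in TBBPA at 4.5 hpf than in DMSO at 3.5 hpf was 0 and became 1 with limma voom and with the fit on all 16 libraries, and 0 to 1 when a library was left out. The cause was not tested.

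Counts over all genes moved by over 1.5 times when a library was left out. At 3.5 hpf 1424 genes became 925 without TBBPA replicate 2. From 3.5 to 4.5 hpf in TBBPA 1753 became 1107 to 1152 without TBBPA replicate 1 or 2 at 3.5 hpf or replicate 3 or 4 at 4.5 hpf. For TBBPA at 4.5 hpf against DMSO at 3.5 hpf 965 became 539 to 614 without DMSO replicate 1, 2 or 4 or TBBPA replicate 3.

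Deviations of same-numbered libraries correlated weakly, at -0.0824 to 0.188. The highest, for replicate 4 over time in TBBPA, was also the closest match of that library. A replicate block moved the calls over all genes from 1753 to 1967 over time in TBBPA. For TBBPA at 4.5 hpf against DMSO at 3.5 hpf it moved them from 965 to 797. A partial pairing by replicate number is therefore not settled by these values. With the replicate number as a block, foxd5 at 3.5 hpf (adjusted p = 0.0557) and foxd3 over time in TBBPA (adjusted p = 0.0693) were not called. Depth limits otx2b, her3 and every gene but otx1 at 2 hpf, where 3 reads are the floor; this covers counting error only.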

Other observations

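All genes were also grouped by their course in vehicle embryos, a grouping made after the values of the 8 members were seen and resting on separately scaled tables. In the first group, genes under 0.5 FPKM at 2 hpf and at 2 FPKM or more at 3.5 hpf that fell by 4.5 hpf in DMSO numbered 32, irx7 and her3 among them. From 3.5 to 4.5 hpf in TBBPA 4 of these fell, 0 rose and 28 were not called, beside 6.15% of all genes called higher and 8.6% lower, with median log2 differences of -0.83 in DMSO, where the choice fixes the sign, and -0.15 in TBBPA. Genes already present at 2 and 3.5 hpf that fell by 4.5 hpf in DMSO numbered 3735, with otx1 among them, and 933 of them fell and 7 rose in TBBPA (medians -0.55 and -0.12). Genes under 0.5 FPKM at 2 hpf that rose in DMSO to at least 2 FPKM numbered 751, among them zic2a, zic2b, foxd3 and foxd5. Of these, 412 passed the filter in TBBPA, a filter that depends on the level reached at 4.5 hpf, so their calls are not counted. With no filter, the median over 750 of them was 0.45 in TBBPA, against 1.5 over the 751 in DMSO, where the choice again fixes the sign.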
